A study of Mus musculus with 72 samples.

Results

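Hmox1, Hmox2, Blvra and Blvrb, the genes of the 2 heme oxygenases and the 2 biliverdin reductases, were followed in mouse whole blood during and after intake of lead. They were taken as every gene of these symbols with a probe set annotated to that symbol alone, and where a gene has several such probe sets the one with the highest mean over all 72 arrays represents it. Each of the 4 genes had exactly 1 such probe set, so they are 4 of the 18194 genes that the array names in this way. Heme oxygenase opens the ring of heme and releases carbon monoxide, iron and biliverdin, and biliverdin reductase then turns the green biliverdin into bilirubin. Hmox1 is the inducible oxygenase, switched on by heme, metals and oxidative stress and known for its work in macrophages of spleen and liver that take up old red cells, while Hmox2 is the constitutive form. Blvra encodes the reductase for the biliverdin that heme oxygenase makes, and Blvrb encodes an NADPH flavin reductase that is abundant in red cells and also reduces biliverdin IX beta. Lead is known to disturb the building of heme, the opposite branch of the same metabolism.

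The animals were female Balb/c mice, 9 weeks old when the treatment began. For 2 weeks they drank water with lead acetate trihydrate at 5 µg/mL in the low-dose group, 50 µg/mL in the high-dose group and 0 µg/mL in the controls, followed by 2 weeks of water without lead. Blood drawn under the jaw gave 7 control, 15 low-dose and 15 high-dose samples after the exposure and 7 control, 15 low-dose and 13 high-dose samples after the recovery. All samples were stabilised with an RNA preservative at collection and depleted of globin transcripts, so that much of the message of red cells was taken out in every group. Only 7 of the 15 control mice were bled after the exposure, and the sources used here do not say whether the recovery controls were the same mice. The exposed mice were bled at both collections, but the labels do not link the arrays of a mouse, so the fit treats them as independent and its p-values reflect the spread among these samples alone. Recovery samples also came from mice 2 weeks older than the exposure samples.

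The values are the authors' log2 signals after RMA, 1 array per sample. Array medians ran from 4.05 to 4.22, and the correlation between arrays from 0.958 to 0.995. The arrays of high-dose exposure replicate 13 and low-dose recovery replicate 4 had a wide spread against the median array, and leaving both out changed no call on these genes. A gene entered the tests where its value exceeded the median of all deposited values, 4.14, on at least 7 arrays, which 12589 genes did. Hmox2, Blvra and Blvrb passed on all 72 arrays, and Hmox1 exceeded that value on 3 arrays and was not tested. The number of arrays in a group limits the precision of every value below.

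The probe sets were 1448239_at for Hmox1, 1416399_a_at for Hmox2, 1428580_at for Blvra and 1451386_at for Blvrb. A list of 28 genes of organs other than blood served as background, with a median of 3.88 and a 90th percentile of 5.74. Hmox1, with a mean of 3.81 over all arrays, lay just below the median of that list and is near background. Hmox2 at 7.36, Blvra at 7.00 and Blvrb at 9.55 lay above the 90th percentile. These means are set against the background only and not against each other, because probe sets differ in how they bind.

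Promoter windows of RefSeq on GRCm38.p6 were available for 3 of the 4 genes, and the 250 bases upstream of 1 annotated start of each are shown because Hmox2 and Blvra moved together between collections and Blvrb moved the other way. Where a gene had several starts, the window with the most CpG dinucleotides that holds no other listed start was taken, which left 7 CpG in Hmox2, 12 in Blvra and 18 in Blvrb. Hmox2 is at chr16:4756631-4756880, Blvra at chr2:127070407-127070656 and Blvrb at chr7:27447728-27447977, all on the plus strand, and each ends at the base before the start. Capitals mark the motifs found.
Hmox2: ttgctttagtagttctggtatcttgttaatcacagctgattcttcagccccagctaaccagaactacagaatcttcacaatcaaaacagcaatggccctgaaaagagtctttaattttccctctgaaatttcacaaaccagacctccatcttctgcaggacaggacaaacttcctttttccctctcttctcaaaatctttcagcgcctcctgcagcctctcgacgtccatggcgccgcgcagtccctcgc
Blvra: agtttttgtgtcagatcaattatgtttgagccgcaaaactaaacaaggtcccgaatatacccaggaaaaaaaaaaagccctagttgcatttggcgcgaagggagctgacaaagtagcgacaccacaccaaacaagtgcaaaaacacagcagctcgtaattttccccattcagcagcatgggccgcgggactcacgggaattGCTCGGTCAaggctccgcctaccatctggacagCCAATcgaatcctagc
Blvrb: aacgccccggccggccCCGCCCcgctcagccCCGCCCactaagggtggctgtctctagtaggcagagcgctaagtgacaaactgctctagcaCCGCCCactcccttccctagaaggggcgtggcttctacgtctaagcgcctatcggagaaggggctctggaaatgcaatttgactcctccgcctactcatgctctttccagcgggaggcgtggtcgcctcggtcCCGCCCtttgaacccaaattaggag
The motifs searched on both strands were AGATAA or TGATAA of GATA factors, CCACACCC of the erythroid Kruppel-like factor, TGACNNNGC of the antioxidant response element, the E-box CACGTG, the GC box GGGCGG, the CCAAT box CCAAT and the TATA box TATAAA. The capitals in Blvrb are 4 GC boxes read on the minus strand, and a GC box lies in 32.7% of all 32851 windows of this length. Those in Blvra are 1 antioxidant response element on the minus strand, a motif held by 10.2% of windows, and 1 CCAAT box, held by 33.8%. The Hmox2 stretch shown holds none of the letters searched, while the 250 bases before another annotated Hmox2 start, which begin at 4756696, hold 2 GC boxes. GATA letters (16.6% of windows), the CACCC box (3.2%), the E-box (6.02%) and the TATA box (12.4%) were in none of the 3 stretches shown. No searched motif overlapped another. These matches describe letters only.

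**Figure D1:**
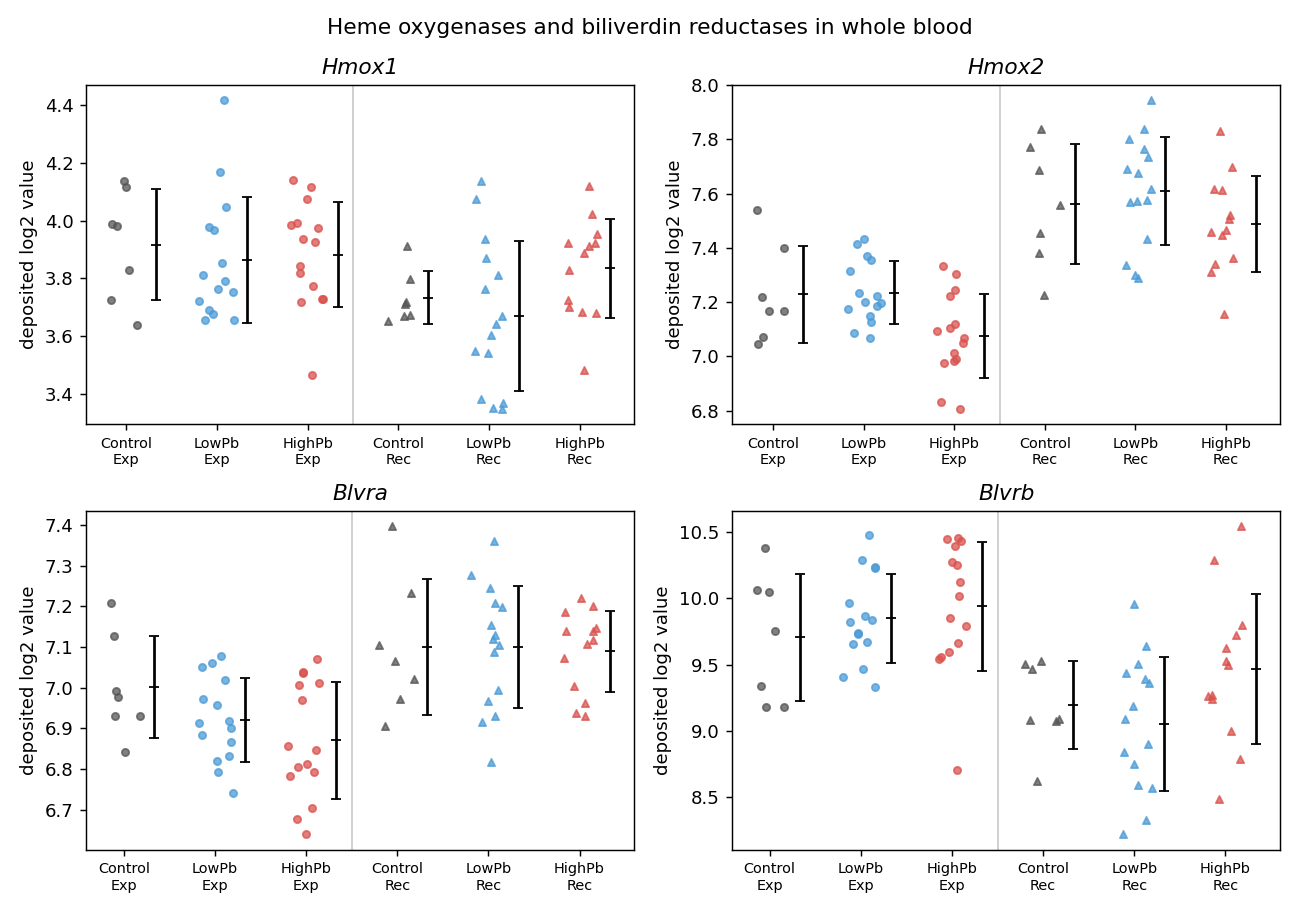
Deposited log2 values of the 4 genes, 1 point per array, for control, low-dose (LowPb) and high-dose (HighPb) mice after exposure (Exp, circles) and recovery (Rec, triangles); black bars are the mean ± SD. Each panel has its own axis. Hmox2 lies higher after recovery in all 3 dose groups, Blvrb lies lower, and Hmox1 stays between 3.35 and 4.41.

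Hmox1 was near background in all 6 groups, so its values are given as a description. After exposure it ran in controls from 3.64 through a median of 3.98 to 4.14 (mean 3.92 ± 0.19, SD, n = 7). In low-dose mice it ran from 3.66 through 3.79 to 4.41 (mean 3.86 ± 0.22, n = 15), and in high-dose mice from 3.47 through 3.93 to 4.14 (mean 3.88 ± 0.18, n = 15). The groups overlapped almost wholly, and the highest array of all was low-dose exposure replicate 12. After recovery the controls ran from 3.65 through 3.71 to 3.91 (mean 3.73 ± 0.09, n = 7), the low-dose mice from 3.35 through 3.64 to 4.14 (mean 3.67 ± 0.26, n = 15), and the high-dose mice from 3.48 through 3.89 to 4.12 (mean 3.83 ± 0.17, n = 13). The low-dose recovery group reached lowest, with 8 of its 15 arrays below every low-dose exposure array, yet its upper arrays lay among all other groups. In a limma fit without the filter on low values, the recovery minus exposure difference was -0.19 in low-dose mice (95% interval -0.34 to -0.05, Benjamini-Hochberg adjusted p = 0.0333), -0.18 in controls (adjusted p = 0.2) and -0.05 in high-dose mice (adjusted p = 0.647). In the same fit the high dose after recovery was 0.10 above control (95% interval -0.08 to 0.29, limma adjusted p = 0.742), with 5 of 13 arrays above every control array. It was 0.16 above the low dose (0.01 to 0.31, limma adjusted p = 0.386), and the low dose against control was -0.06 (-0.24 to 0.12). At this level a difference cannot be told from one in the array's background, and no rise of the inducible oxygenase after lead passed the threshold.

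Hmox2, the constitutive oxygenase, was lower in exposure blood than in recovery blood. After exposure it ran in controls from 7.04 through 7.17 to 7.54 (mean 7.23 ± 0.18, n = 7), in low-dose mice from 7.07 through 7.20 to 7.43 (mean 7.24 ± 0.12, n = 15) and in high-dose mice from 6.81 through 7.07 to 7.33 (mean 7.08 ± 0.15, n = 15). High-dose arrays reached lowest, 7 of 15 below every low-dose array, while the tops of the groups overlapped. After recovery the controls ran from 7.23 through 7.56 to 7.84 (mean 7.56 ± 0.22, n = 7), the low-dose mice from 7.29 through 7.62 to 7.94 (mean 7.61 ± 0.20, n = 15) and the high-dose mice from 7.16 through 7.47 to 7.83 (mean 7.49 ± 0.18, n = 13). These 3 groups overlapped each other over most of their range. By mean the order from low to high was high dose, control and low dose after exposure, then high dose, control and low dose after recovery. Within a collection no neighbours in that order passed the test, and the step from low dose after exposure to high dose after recovery, which changes dose and collection together, was not compared.

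Blvra, the reductase of the main biliverdin, had the smallest spread within groups of the 4 genes. After exposure it ran in controls from 6.84 through 6.98 to 7.21 (mean 7.00 ± 0.13, n = 7), in low-dose mice from 6.74 through 6.91 to 7.08 (mean 6.92 ± 0.10, n = 15) and in high-dose mice from 6.64 through 6.85 to 7.07 (mean 6.87 ± 0.14, n = 15). The 3 groups overlapped, with 7 high-dose arrays below every control array. After recovery the controls ran from 6.91 through 7.06 to 7.40 (mean 7.10 ± 0.17, n = 7), the low-dose mice from 6.82 through 7.12 to 7.36 (mean 7.10 ± 0.15, n = 15) and the high-dose mice from 6.93 through 7.12 to 7.22 (mean 7.09 ± 0.10, n = 13). The 3 recovery means lay within a few hundredths of each other. Its SD within groups, 0.13, stood at the 9.2th percentile of the 500 genes of nearest mean level. The order of means from low to high was high dose, low dose and control after exposure, then high dose, control and low dose after recovery, and no neighbours within a collection passed the test.

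Blvrb, the flavin and biliverdin IX beta reductase, had the widest spread within groups of the 4 genes. After exposure it ran in controls from 9.18 through 9.75 to 10.38 (mean 9.71 ± 0.48, n = 7), in low-dose mice from 9.33 through 9.82 to 10.48 (mean 9.85 ± 0.34, n = 15) and in high-dose mice from 8.70 through 10.02 to 10.46 (mean 9.94 ± 0.49, n = 15). The high-dose group holds the lowest exposure array, replicate 9, whose next neighbour in that group stood at 9.54, and otherwise the 3 groups shared 1 range. After recovery the controls ran from 8.62 through 9.09 to 9.53 (mean 9.19 ± 0.33, n = 7), the low-dose mice from 8.22 through 9.09 to 9.96 (mean 9.05 ± 0.51, n = 15) and the high-dose mice from 8.49 through 9.50 to 10.55 (mean 9.47 ± 0.56, n = 13). High-dose recovery arrays spanned both the low range of recovery and the high range of exposure. The SD within groups was 0.47, at the 98.4th percentile of the 500 genes of nearest mean level. The order of means from low to high was low dose, control and high dose after recovery, then control, low dose and high dose after exposure, and no neighbours within a collection passed the test.

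The comparisons with controls ask whether lead intake shifted heme breakdown genes in blood, and none of the 3 tested genes passed the threshold in any of them. The tests are limma's with all 6 groups in 1 fit and Benjamini-Hochberg adjustment over the 12589 genes, and a gene counts as called at an adjusted p under 0.05. High dose against control after exposure called 0 of 3, where 0.0238% of all genes were called. The Hmox2 difference was -0.15 ± 0.08 (SE; 95% interval -0.31 to 0.00356; limma adjusted p = 0.539) and that of Blvra -0.13 ± 0.06 (-0.26 to -0.01; limma adjusted p = 0.503). The control and high-dose arrays overlapped for both genes. The Blvrb difference was 0.23 ± 0.20 (-0.17 to 0.64; limma adjusted p = 0.75). Low dose against control after exposure, which shares its 7 controls with the comparison just given, called 0 of 3 against 1.3% of all genes. Its differences were 0.00526 for Hmox2 (95% interval -0.15 to 0.16), -0.08 for Blvra (-0.21 to 0.04) and 0.14 for Blvrb (-0.26 to 0.55). All 3 low-dose intervals held 0. For Hmox1, in the fit without the filter, the difference was -0.04 at the high dose (limma adjusted p = 0.954) and -0.05 at the low dose (limma adjusted p = 0.915).

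After recovery the high dose against control called 0 of 3, beside 0.429% of all genes. The differences were -0.07 for Hmox2 (95% interval -0.24 to 0.09), -0.01 for Blvra (-0.14 to 0.12) and 0.27 for Blvrb (-0.14 to 0.68), with limma adjusted p of 0.723, 0.954 and 0.62. Low dose against control after recovery shares those 7 controls, and it called 0 of 3 and 0% of all genes in limma, where 295 genes had an unadjusted p under 0.05. The differences there were 0.05 for Hmox2 (-0.11 to 0.21), 0.000622 for Blvra (-0.13 to 0.13) and -0.14 for Blvrb (-0.55 to 0.26). For Blvra the interval reaches no further than 0.13 in either direction. The test of whether a dose effect changed between collections called 0 of 3 genes at the high dose, beside 0.00794% of all genes, and 0 of 3 at the low dose, beside 0.0238%. The largest of these changes, that of Blvrb at the low dose, was -0.29 ± 0.29 (limma adjusted p = 0.954).

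The high dose was also set against the low dose, where the groups are larger. After exposure 0 of the 3 genes were called, while 18.7% of all genes were. Hmox2 came nearest, at -0.16 ± 0.06 (95% interval -0.29 to -0.03, a fold of 0.895; limma adjusted p = 0.0637). With only the 2 groups in the fit its adjusted p in limma was 0.0324, and without high-dose replicate 3, 4 or 12 it was 0.0392, 0.0372 and 0.0431. Array weights (limma adjusted p = 0.0512), the filter in all 72 arrays (0.057) and the mean of probe sets (0.0602) moved Hmox2 nearer to the threshold without a call. Among the settings that moved it away, the Hmox2 difference was -0.02 with 7 marker means as covariates (limma adjusted p = 0.928), -0.09 with the erythroid mean (0.334), -0.13 with the hybridisation controls (0.245), -0.08 with cyclic loess scaling (0.143) and -0.10 with quantile normalization (0.0942). The 18S control stood at 7.00 ± 0.86 in low-dose and 7.79 ± 0.99 in high-dose mice, and the hybridisation controls at 9.81 ± 0.36 and 10.24 ± 0.40. Beside it, in the same comparison, 12 of 13 B cell markers and 11 of 15 monocyte markers fell, and 1 monocyte and 7 of 18 erythroid markers rose. Blvra differed by -0.05 (-0.15 to 0.05; limma adjusted p = 0.491), a difference that turned to 0.02 with cyclic loess scaling and to 0.0084 with quantile normalization. Blvrb differed by 0.09 (-0.23 to 0.41; limma adjusted p = 0.717), and with the erythroid mean as a covariate by -0.24 (limma adjusted p = 0.0207), which turns the direction and passes the threshold. After recovery 0 of 3 genes were called and 0% of all genes, with 1765 genes at an unadjusted p under 0.05 in limma. Blvrb showed the largest difference of the set there, 0.41 ± 0.17 (0.08 to 0.75; limma adjusted p = 0.294), with 2 arrays of the high dose beyond the top of the low-dose range and 2 of the low dose beneath the bottom of the high-dose range. The erythroid marker mean was also higher in the high-dose mice, 8.23 ± 0.29 against 7.91 ± 0.36, and with it as a covariate the Blvrb difference was -0.06.

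**Figure D2:**
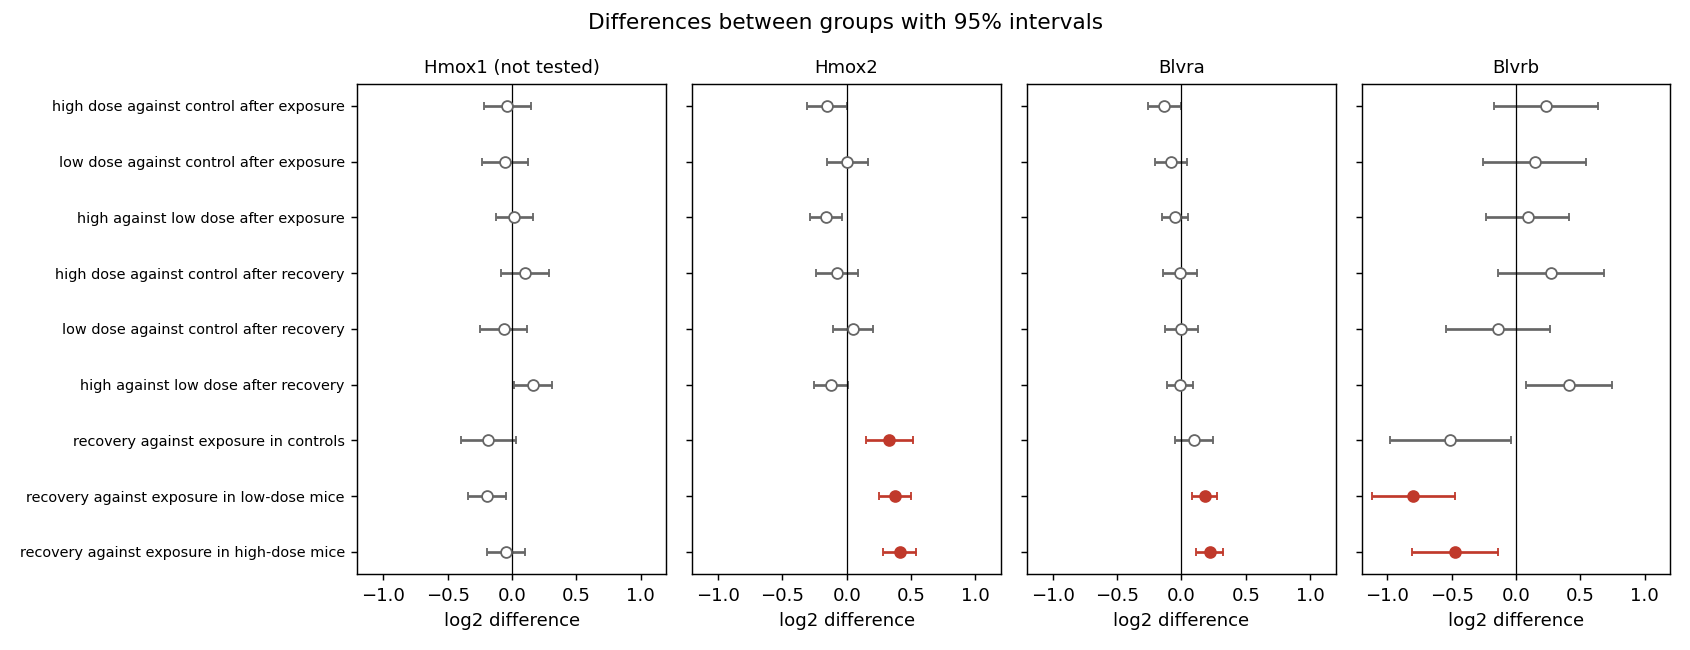
Differences on the log2 scale between the first-named and the second-named group with 95% intervals from limma, for each gene and comparison; filled red points have an adjusted p under 0.05 and open points do not. Hmox1 was not tested. The filled points are the 7 called differences between collections, 3 for Hmox2 and 2 each for Blvra and Blvrb.

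Between the collections the genes of heme breakdown parted: Hmox2 and Blvra rose and Blvrb fell. This comparison asks what changed from the end of exposure to the end of recovery, and the controls, which never drank lead, give the same comparison without it. Such changes were common among all genes, with 36.1% of them called in controls, 44.1% in low-dose and 49.2% in high-dose mice. Of the 3 tested members 1 was called in controls, 3 in low-dose and 3 in high-dose mice. Of all called genes 62.4%, 59.5% and 59.7% were higher after recovery, and with cyclic loess scaling these shares were 49.1%, 47.6% and 45.4%. The 3 comparisons share no arrays, but the labels do not link the mice.

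Hmox2 rose in every dose group. The rise was 0.33 ± 0.09 in controls (fold 1.26, 95% interval 1.11 to 1.43; limma adjusted p = 0.00345), where 4 of 7 recovery arrays lay above every exposure array. In low-dose mice it was 0.37 ± 0.06 (fold 1.30, 1.19 to 1.41; limma adjusted p = 1.52e-06), with 12 of 15 recovery arrays above every exposure array. In high-dose mice it was 0.41 ± 0.07 (fold 1.33, 1.21 to 1.46; limma adjusted p = 3.41e-07), with 11 of 13 above. The groups therefore still overlapped in each case, by 3, 3 and 2 recovery arrays. With cyclic loess scaling the rises were 0.22, 0.29 and 0.30, and all 3 remained called. With the erythroid marker mean as a covariate the rise in controls was 0.14 and was not called (limma adjusted p = 0.313), against 0.20 and 0.27 in low-dose and high-dose mice (adjusted p = 0.0204 and 0.000959). With the means of 7 cell marker lists as covariates the rises were 0.15, 0.21 and 0.16, of which that in controls was not called (limma adjusted p = 0.207).

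Blvra rose in the mice that had drunk lead. The rise was 0.18 ± 0.05 in low-dose mice (fold 1.13, 95% interval 1.06 to 1.21; limma adjusted p = 0.00243), where 10 of 15 recovery arrays lay above every exposure array. In high-dose mice it was 0.22 ± 0.05 (fold 1.16, 1.08 to 1.25; limma adjusted p = 0.000346), with 9 of 13 above. In controls the difference was 0.10 ± 0.07 (-0.05 to 0.25; limma adjusted p = 0.29), and -0.01 with cyclic loess scaling. The tests of the dose effect between collections, given above, did not separate the exposed mice from the controls for this gene (0.08 and 0.12, limma adjusted p = 0.964 and 1). Cyclic loess scaling cut the rises to 0.10 and 0.11 (adjusted p = 0.0305 and 0.0229), and with the erythroid marker mean as a covariate the rise in low-dose mice was 0.13 (adjusted p = 0.107).

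Blvrb fell in the exposed mice, and the difference pointed the same way in controls. The fall was -0.80 ± 0.16 in low-dose mice (fold 0.575, 95% interval 0.460 to 0.719; limma adjusted p = 4.03e-05), with 9 of 15 recovery arrays below every exposure array. In high-dose mice it was -0.47 ± 0.17 (fold 0.720, 0.571 to 0.907; limma adjusted p = 0.0155), yet only 1 of 13 recovery arrays lay below every exposure array, since high-dose exposure replicate 9 was itself low. In controls it was -0.51 ± 0.24 (fold 0.702, 0.506 to 0.973; limma adjusted p = 0.0811), with 4 of 7 below. The controls' difference was called with array weights (-0.57, limma adjusted p = 0.0264), with only the groups compared in the fit (-0.51, 0.0383) and without control exposure replicate 1 (-0.60, 0.0451).

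Markers of the blood's cell types moved between the same collections. Of 18 erythroid markers 13 fell in controls, 13 in low-dose and 14 in high-dose mice and none rose, and the mean of the list went from 8.52 ± 0.28, 8.48 ± 0.18 and 8.71 ± 0.30 after exposure to 7.88 ± 0.24, 7.91 ± 0.36 and 8.23 ± 0.29 after recovery. Its range was 8.11 to 8.89, 8.23 to 8.78 and 8.02 to 9.19 after exposure, and 7.62 to 8.15, 7.20 to 8.55 and 7.69 to 8.86 after recovery. B cell markers rose, 13, 12 and 13 of 13, with list means of 7.91, 8.35 and 7.67 going to 8.90, 8.90 and 8.64. Of 15 monocyte markers 12, 6 and 11 rose and 0, 1 and 1 fell. The counts of these lists stand beside the 36.1%, 44.1% and 49.2% of all genes called in controls, low-dose and high-dose mice. Of 12 T cell markers 0, 3 and 5 rose and 1 fell in each dose group. Their list means went from 8.68, 8.61 and 8.49 to 8.70, 8.67 and 8.66. In whole blood, fewer cells of a type and less RNA per cell cannot be told apart. With the erythroid mean as a covariate the Blvrb difference between collections was 0.43 in controls (limma adjusted p = 0.00504), 0.05 in low-dose mice (0.762) and 0.23 in high-dose mice (0.0268), and with 7 marker means it was 0.09, 0.03 and 0.03 (adjusted p = 0.727, 0.856 and 0.83). The erythroid mean itself fell between the collections, and its part in the Blvrb differences was not tested. Of 12 markers of tissue macrophages, the cells in which Hmox1 is known to act on old red cells, 11 were near background, among them Spic at 4.26, Marco at 3.87 and Vcam1 at 4.08. Of the skin, muscle and salivary gland markers, checked because the blood was drawn through the skin under the jaw, 14 of 14 were near background.

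RNA quality moved with the collections too. The 5' minus 3' signal of the Gapdh control was -0.54, -0.53 and -0.56 in control, low-dose and high-dose mice after exposure and -0.91, -0.93 and -0.84 after recovery, and that of beta-actin went from -0.37, -0.44 and -0.48 to -0.68, -0.67 and -0.65. The 18S control went from 7.00, 7.00 and 7.79 to 6.38, 6.33 and 6.43. With the mean of the 5' minus 3' signals as a covariate, a fit chosen after seeing the data, the rises of Hmox2 were 0.37, 0.41 and 0.44, those of Blvra 0.21, 0.28 and 0.29, and the differences of Blvrb -0.52, -0.81 and -0.48. The calls were the ones given above.

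**Figure D3:**
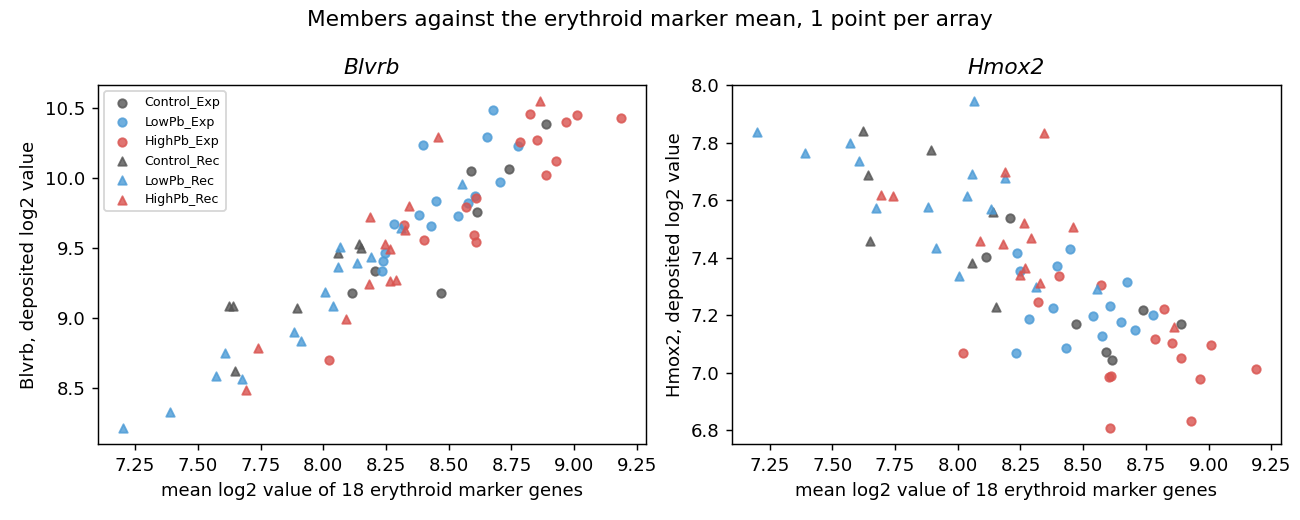
Deposited log2 values of Blvrb (left) and Hmox2 (right) against the mean of 18 erythroid marker genes, 1 point per array; circles are exposure and triangles recovery arrays, and colours are the dose groups. Blvrb rises with the marker mean over arrays of both collections, and Hmox2 falls.

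The spread between mice of 1 group was used to see which genes move together. Each group's mean was first taken off, and exposure and recovery arrays were kept apart, 37 and 35 arrays. In all 92 relations were computed, of members with each other and with 10 marker lists, and the p-values come from 100000 shuffles within groups. Blvrb followed the erythroid marker mean, with Pearson's r of 0.88 after exposure and 0.93 after recovery and Spearman's rho of 0.86 and 0.92. The permutation p was 1e-05, the smallest these shuffles can give, and 0.00023 after Benjamini-Hochberg adjustment for both. Without the 2 arrays farthest from the median of Blvrb r was 0.83 and 0.91. Hmox2 ran against the same mean, with r of -0.39 and -0.58 (rho -0.35 and -0.52; permutation adjusted p = 0.0605 and 0.00281), and -0.30 and -0.70 without the 2 farthest arrays. The marker mean holds no member of the set, but all values of an array share its depth and scaling.

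Hmox2 and Blvra moved together, with r of 0.56 and 0.66 (rho 0.51 and 0.69; permutation adjusted p = 0.00324 and 0.000368), and 0.47 and 0.68 without the 2 farthest arrays. Both followed T cell markers, Hmox2 with r of 0.74 and 0.73 (rho 0.74 and 0.76; permutation adjusted p = 0.00023 in both) and Blvra with 0.62 and 0.72 (rho 0.67 and 0.70; permutation adjusted p = 0.000753 and 0.00023). Without the 2 farthest arrays these were 0.68 and 0.75 for Hmox2 and 0.56 and 0.69 for Blvra. T cells were not the only list: Hmox2 gave r of 0.72 and 0.45 with monocyte markers (rho 0.67 and 0.38; permutation adjusted p = 0.00023 and 0.0245), 0.59 and 0.50 with B cell markers (rho 0.55 and 0.47; 0.00241 and 0.0119), 0.46 and 0.60 with neutrophil markers (rho 0.50 and 0.56; 0.0122 and 0.0023) and 0.51 and 0.56 with NK markers (rho 0.44 and 0.49; 0.0101 and 0.00359). Without the 2 farthest arrays these were 0.70 and 0.39, 0.53 and 0.40, 0.49 and 0.57, and 0.37 and 0.60. Against the skin, muscle and salivary gland list, near background throughout, Hmox2 gave r of -0.65 and -0.67 (rho -0.66 and -0.67; permutation adjusted p = 0.00023 and 0.000307), and -0.63 and -0.62 without the 2 farthest arrays. Against the tissue macrophage markers, of which 11 of 12 were near background, it gave r of -0.54 and -0.43 (rho -0.54 and -0.39, permutation adjusted p = 0.00492 and 0.0406). Without the 2 farthest arrays these were -0.45 and -0.44. Blvra gave r of 0.36 and 0.56 with NK markers (permutation adjusted p = 0.0771 and 0.00372) and 0.29 and 0.49 with monocyte markers (0.167 and 0.0139). Its r was -0.36 and -0.53 with tissue macrophage markers (0.0771 and 0.00854) and -0.41 and -0.58 with the skin, muscle and salivary gland list (0.0444 and 0.00234). With B cell markers it was 0.02 and 0.28 and with neutrophil markers 0.33 and 0.20, none past the threshold. Hmox2 and Blvrb gave r of -0.12 and -0.39 (rho -0.10 and -0.29, permutation adjusted p = 0.641 and 0.0539), neither past the threshold. Blvra and Blvrb gave r of -0.02 and -0.21 (rho -0.01 and -0.16; permutation adjusted p = 0.958 and 0.317). Hmox1 ran against Hmox2 after recovery, r = -0.57 (rho -0.56, permutation adjusted p = 0.00241), and r after exposure was -0.22 (rho -0.24, permutation adjusted p = 0.296). With Blvra its r was -0.08 and -0.54 (rho -0.08 and -0.52; permutation adjusted p = 0.766 and 0.00492). With T cell markers r was -0.50 and -0.57 (permutation adjusted p = 0.00839 and 0.00324) and with B cell markers -0.45 and -0.49 (0.0125 and 0.011). With tissue macrophage markers r was 0.24 and 0.48 (0.242 and 0.00927). That list is near background in 11 of its 12 genes, and its mean rests on the 5 genes that passed the filter. Hmox1 followed the skin, muscle and salivary gland list, all of it near background, with r of 0.57 and 0.69 (rho 0.55 and 0.75; permutation adjusted p = 0.00237 and 0.00023), and 0.52 and 0.66 without the 2 farthest arrays.

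For each member the 5 genes most alike were taken by r over the 72 arrays after removing group means, as a description. For Blvrb these were Glul, the glutamine synthetase, at 0.96, Urod, the uroporphyrinogen decarboxylase of heme synthesis, at 0.96, Trim10, an erythroid ring finger gene among the markers above, at 0.95, Dnajb2, a co-chaperone, at 0.95, and Atg4a, an autophagy protease, at 0.95. Of the 12586 other tested genes 638 had r above 0.5 with Blvrb. For Hmox2 they were Park7 at 0.88, Rab7 at 0.87, Psmb8 at 0.87, Ppib at 0.86 and Rpsa at 0.85, genes of redox sensing, late endosomes, the immunoproteasome, protein folding and the ribosome, and 3721 genes had r above 0.5. For Blvra they were Rpl8 at 0.74, Lat at 0.73, Psmc5 at 0.72, Cox4i1 at 0.71 and Parp14 at 0.70, and 1439 genes had r above 0.5. Lat, the linker for activation of T cells, is also on the T cell marker list. For Hmox1 they were Crb3 at 0.71, Sync at 0.71, Lrrc18 at 0.69, Prr27 at 0.69 and Batf2 at 0.67. The arrays share scaling and RNA quality, so a high r here is no measure of shared control.

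Genes around heme breakdown changed in both directions between the collections, beside the shifts of erythroid, B cell and monocyte markers given above, whose part in these changes was not tested. The counts of every list below stand beside the 36.1%, 44.1% and 49.2% of all genes called in controls, low-dose and high-dose mice. Of 9 tested genes that scavenge or carry heme and hemoglobin, 2 rose and 2 fell in controls, 2 rose and 5 fell in low-dose mice, and 2 rose and 3 fell in high-dose mice, with list medians of -0.07, -0.18 and -0.04 beside -0.01, -0.00403 and -0.00457 over all genes. Lrp1, the receptor of heme bound to hemopexin, rose by 0.85, 0.41 and 0.42 (limma adjusted p = 9.92e-07, 0.000137 and 0.000154). Flvcr1, a heme exporter, fell by 0.38, 0.33 and 0.41 (limma adjusted p = 0.0282, 0.00354 and 0.000443), and Pgrmc1, a heme-binding membrane protein, by 0.39, 0.27 and 0.38. Abcg2, an exporter of porphyrins, fell in low-dose and high-dose mice by 0.31 and 0.45. Hp, the plasma scavenger of hemoglobin, rose by 0.55 in controls (limma adjusted p = 0.0184).

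Of 11 tested regulators of Hmox1 transcription 3 rose in each of the comparisons and 2, 4 and 2 fell, with medians of 0.05, -0.03 and -0.06. Keap1, the inhibitor that holds Nrf2 in the cytosol, rose by 0.33, 0.36 and 0.33 (limma adjusted p = 0.00125, 2.96e-07 and 2.3e-06). Fbxo22, a ubiquitin ligase subunit that targets the repressor Bach1, rose by 0.55, 0.50 and 0.49. Bach2, a relative of Bach1 at work in lymphocytes, rose by 0.61 in controls and 0.39 in high-dose mice (limma adjusted p = 7.84e-05 and 0.000153). Nfe2l2, which encodes Nrf2, fell by 0.17 in low-dose and 0.27 in high-dose mice, and Mafg, a small Maf partner, by 0.35 in controls and 0.27 in low-dose mice. Bach2 is also a gene of B cells, whose markers rose as given above.

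Of 10 tested further targets of Nrf2 1 rose and 6 fell in controls, 1 rose and 6 fell in low-dose mice, and 1 rose and 5 fell in high-dose mice, with medians of -0.33, -0.24 and -0.20. Gsr, the glutathione reductase, fell by 0.63, 0.36 and 0.54 (limma adjusted p = 1.63e-05, 0.000139 and 1.22e-07). Cat, the catalase, fell by 0.58 in low-dose and 0.35 in high-dose mice, Nqo1, a quinone reductase, by 0.88 in low-dose mice, Gclm by 0.45 in controls and 0.39 in low-dose mice, and Gclc by 0.32 in controls and 0.27 in high-dose mice, the last pair being the subunits that make glutathione's precursor. Tkt, the transketolase, rose by 0.48 in controls and 0.48 in high-dose mice (limma adjusted p = 0.00466 and 3.29e-05). Catalase is abundant in red cells, whose markers fell beside it.

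Of 5 listed genes of electron and NADPH supply 3 were tested: Cyb5r3, Cyb5a and Pgd. Por, the cytochrome P450 reductase, and G6pdx had no probe set annotated to that symbol alone. The electron supply of heme oxygenase itself was therefore not covered. All 3 tested genes were called in both exposed groups, where 44.1% and 49.2% of all genes were, and 3 genes are too few to set against those shares. Cyb5r3, the NADH-cytochrome b5 reductase, rose by 0.47, 0.32 and 0.35 and Cyb5a, cytochrome b5, fell by 0.68, 0.27 and 0.34, in controls, low-dose and high-dose mice (limma adjusted p between 1.21e-06 and 0.0019). Pgd, which makes NADPH, rose by 0.47 and 0.45 in low-dose and high-dose mice. Of 9 tested genes that handle the iron set free from heme 2 rose and 2 fell in controls, 1 rose and 2 fell in low-dose mice, and 2 rose and 1 fell in high-dose mice. Aco1, an iron regulatory protein, rose by 0.36, 0.41 and 0.46, and Ireb2, the other one, fell by 0.55, 0.64 and 0.56. Fth1, the ferritin heavy chain, fell by 0.15 in controls and Slc11a1, an iron carrier of phagosomes, rose by 0.47. Ncoa4, the receptor for ferritin turnover, fell by 0.18 in low-dose mice, and Slc11a2, the iron carrier of endosomes, rose by 0.11 in high-dose mice.

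Bilirubin conjugation and export had 3 tested genes, of which none was called in controls or low-dose mice. In high-dose mice Abcc1, an export pump, rose by 0.19 (limma adjusted p = 0.0188), and Abcc3 and Slco1a1 fell by 0.23 and 0.17 (limma adjusted p = 0.0399 and 0.0419). Of 8 tested enzymes of heme synthesis none rose in controls or low-dose mice and 1 in high-dose mice, and 1, 2 and 2 fell. Uros, the uroporphyrinogen synthase, fell by 0.29, 0.14 and 0.25, Urod by 0.53 in low-dose mice and Cpox by 0.20 in high-dose mice, while Alas1, the first enzyme outside red cells, rose by 0.14 in high-dose mice. Guanylate cyclase, which senses nitric oxide and carbon monoxide, had 2 tested subunits: Gucy1b1 fell by 1.03, 0.33 and 0.69, and Gucy1a1 by 0.69 in controls and 0.44 in high-dose mice. Both are also genes of platelets, whose markers fell in 8, 1 and 2 of 14 cases and rose in 1, 5 and 3.

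**Figure D4:**
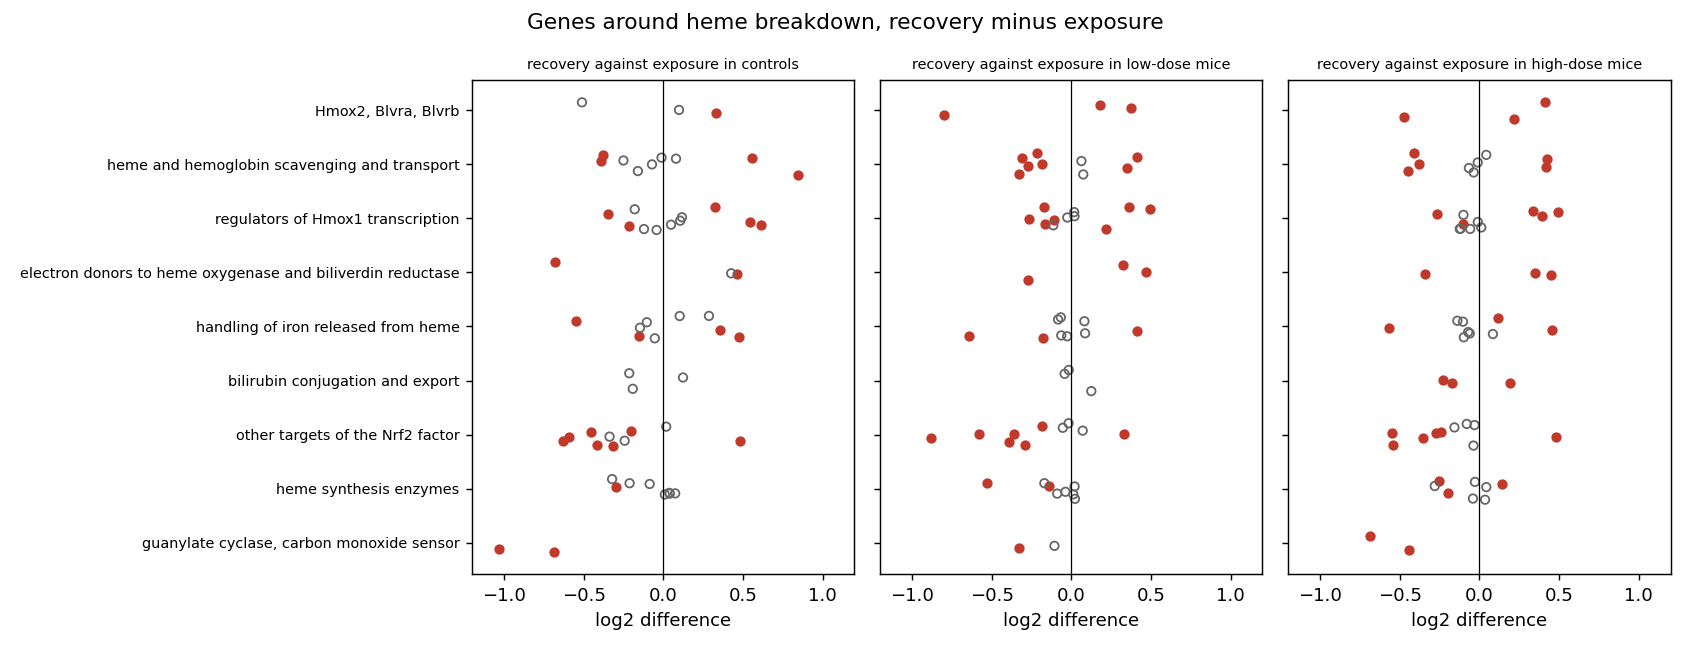
Recovery minus exposure differences on the log2 scale of the tested genes around heme breakdown, 1 point per gene, in controls, low-dose and high-dose mice; filled red points have a limma adjusted p under 0.05. The top row holds Hmox2, Blvra and Blvrb. Further Nrf2 targets lie mostly to the left of 0, and the regulators of Hmox1 lie on both sides.

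Calls on these genes in the dose comparisons stand beside the share of all genes called. That share was 1.3% in low dose against control after exposure and 18.7% in high against low dose after exposure. In low dose against control after exposure Lrp1 was higher by 0.44 and Bach2 by 0.43 (limma adjusted p = 0.0317 and 0.0233), beside monocyte and B cell markers of which 7 of 15 and 4 of 13 rose. In high against low dose after exposure Abcg2 was higher by 0.29, Gsr by 0.29, Srxn1, the sulfiredoxin, by 0.27, Cpox by 0.20, Gucy1a1 by 0.46 and Gucy1b1 by 0.45. Bach2 was lower there, with a difference of -0.35, as were Aco1 at -0.28, Tkt at -0.28 and Alas1 at -0.14. In that comparison 11 of 14 platelet markers rose. No gene of these lists was called in the other dose comparisons: in high dose against control the gene of smallest p among the regulators was Fbxo22 after exposure, at -0.23 (limma adjusted p = 0.463), and Hif1a after recovery, at -0.29 (limma adjusted p = 0.22).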

How the data were processed

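The data are 72 Affymetrix mouse arrays of whole blood RNA, 1 per sample, in 6 groups by title. The authors deposited log2 values, and RMA is the 1 tool that the submitters' processing notes name, with its program and version not stated in the labels. Of 45101 probe sets, 34958 carry 1 gene symbol in GEO's platform annotation, and each gene was represented by its probe set of highest mean. From these values, limma 3.58.1 (R 4.3.3) fitted 6 group means to all 72 arrays (66 residual degrees of freedom), with empirical Bayes moderation and Benjamini-Hochberg adjustment within each comparison over 12589 genes; the fit was tested on simulated data. The filter asked for values above 4.14 on 7 or more arrays. RMA's quantile scaling can hide shifts common to most genes, and its background step compresses folds of dim genes. Genes named from the pathway lists were all those called or, above 4, the 4 of smallest p, and otherwise at most the gene of smallest p. The members, the lists and the tests were chosen with earlier results of these data known. The 14 alternative settings cover scaling, filter, probe sets, weights, covariates, groups fitted and a replicate block, and 1 more, the 5' minus 3' covariate, was added after seeing the data. Each array was left out in turn.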

Additional observations from a re-analysis of the deposited data

How the results depend on the processing

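Under 15 alternative settings, and with each of the 72 arrays left out in turn, Hmox2 stayed called in low-dose and high-dose mice between collections, and Blvra in high-dose mice. The exceptions follow, as log2 differences or counts of members called. The cause was not tested where none is named.

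For the comparison of collections in controls, members called were 0 with 7 marker means as covariates and 2 with array weights or only the groups compared, and Hmox2 was 0.15 with 7 marker means and 0.14 with the erythroid mean. Blvrb was 0.09 with 7 marker means, 0.43 with the erythroid mean, -0.57 with array weights and -0.51 with only the groups compared, and Blvra -0.01 with cyclic loess. In low-dose mice the erythroid mean left 1 member called, with Blvra at 0.13 and Blvrb at 0.05, and 7 marker means gave Blvrb 0.03. In high-dose mice Blvrb was 0.23 with the erythroid mean and 0.03 with 7 marker means, which gave Hmox1 0.18.

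Among dose differences, none called in the main setting, high against low dose after exposure had 1 member called with only the groups compared (Hmox2, -0.16) and 1 with the erythroid mean (Blvrb, -0.24). There Blvra turned to 0.02 with cyclic loess and 0.0084 with quantile scaling. Hmox2 in low dose against control after exposure turned to -0.01 with 7 marker means, -0.03 with cyclic loess, -0.03 with quantile scaling and -0.0064 with the erythroid mean. Blvrb turned to -0.06 there with 7 marker means, and to -0.04 in high dose against control after exposure with the erythroid mean. After recovery, high dose against control turned for Blvrb to -0.05 with 7 marker means and -0.24 with the erythroid mean, for Hmox2 to 0.03 with the erythroid mean, and for Blvra to 0.03 with cyclic loess, 0.03 with quantile scaling and 0.02 with the erythroid mean. Blvra in low dose against control after recovery turned to -0.00091 with 7 marker means, -0.0029 with array weights, -0.0044 with the hybridisation control covariate and -0.02 without the 2 wide arrays. In high against low dose after recovery Blvra turned to 0.03, 0.02, 0.02, 0.0014 and 0.0075 with cyclic loess, quantile scaling, the erythroid mean, the hybridisation covariate and without the 2 wide arrays, and Blvrb to -0.06 with the erythroid mean. The change of the high-dose effect between collections turned for Blvrb to -0.06, -0.09 and -0.20 with 7 marker means, array weights and the erythroid mean, and for Hmox2 to -0.01 with array weights; that of the low-dose effect turned for Hmox2 to -0.0024 with array weights.

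Leaving out 1 array moved Blvrb between collections in controls from -0.6 to -0.4, with 1 to 2 members called, and Hmox2 in high against low dose after exposure from -0.18 to -0.14, with 0 to 1 called. Differences near 0 turned: Hmox2 ran from -0.03 to 0.06 in low dose against control after exposure, from -0.0074 to 0.09 after recovery, and from -0.01 to 0.09 in the change of the low-dose effect. Blvra ran from -0.03 to 0.05 in low dose against control, from -0.04 to 0.04 in high dose against control and from -0.03 to 0.0075 in high against low dose, all after recovery, and the change of Blvrb's high-dose effect ran from -0.08 to 0.12.

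Whether the title numbers pair the samples was not settled. Same-numbered exposure and recovery arrays correlated above 0.1 in 3 of 7, 7 of 15 and 4 of 13 pairs. In controls, low-dose and high-dose mice the median r was 0.036, 0.074 and -0.00126 for same numbers. For other numbers it was -0.031, 0.0093 and 0.000553. Between same numbers r was 0.43, 0.45 and 0.02 for Blvrb and 0.11, 0.22 and -0.15 for Hmox2. Weak correlations of this kind cannot exclude pairing. With the number as a replicate block (correlation 0.0212) the Hmox2 rise in controls was 0.33 (limma adjusted p = 0.00303), and no call on a member changed. Each member has 1 probe set, so the run on a member's other probe sets gave no value, and taking the mean over the probe sets of each gene changed no call on a member. In high against low dose after exposure, 32.4% of called genes were higher, against 44.0% with quantile and 49.7% with cyclic loess scaling. Hmox1's signal, near background, limits what can be said of it.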
